A study of Homo sapiens with 6 samples.

Results

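The metallothioneins are small, cysteine-rich proteins that hold zinc and copper ions. The 9 genes described here are 7 of them, *MT2A*, *MT1E*, *MT1F*, *MT1G*, *MT1H*, *MT1M* and *MT1X*, together with *MTF1*, the zinc-sensing transcription factor that drives metallothionein genes, and *SLC30A1*, the plasma membrane transporter that carries zinc out of the cell. They were found by their symbols in the deposited table, and all 9 were present among its 58735 genes. In RRM2-OE-TPC-1 cells, *MT2A* stood at 227.7 FPKM against 168.8 in wild strain TPC-1 cells. *MT1X*, listed at a far lower level, stood at 1.98 against 0.761 FPKM. *MTF1* did not pass the test of a difference, *SLC30A1* differed by little, and the other 5 metallothioneins had between 0 and 3 reads in each library.

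The study asked how overexpression of *RRM2*, the small subunit of ribonucleotide reductase, changes the mRNA of papillary thyroid carcinoma cells. TPC-1 is an established human line of that tumor. The control group was 3 libraries of wild strain TPC-1, for which the sources used here name no virus, and the other group was 3 libraries of RRM2-OE-TPC-1, the same line infected with a lentivirus that carries *RRM2* behind a CMV promoter and selected with puromycin. None of the 6 libraries is labelled as an empty vector. Whether a difference below goes with *RRM2* or with infection and selection cannot be told apart in these groups and was not tested. The labels call the 3 libraries of each line biological replicates. For replicates 2 and 3 of the overexpressing line, the genotype field reads RRM3 and RRM4 and the title RRM2. *RRM2* itself was at 8.92 ± 0.346 FPKM in the control and 48.4 ± 1.78 FPKM under overexpression (mean ± SD, n = 3).

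FPKM is a count of sequenced fragments divided by gene length and by depth, and the whole reads were recovered from it. The libraries held 14317091 to 17084067 reads on genes, with 4.29% to 5.89% on mitochondrial genes. Of the thyroid markers, *PAX8* (mean of 69.3 FPKM in the control libraries and 58.5 with overexpression), *FOXE1* (4.30 and 3.19) and *HHEX* (2.47 and 4.61) were expressed, *NKX2-1* was listed at 0 in all 6 libraries, and the mean of *TG*, *TSHR*, *SLC5A5* and *DIO1* was at most 0.124 FPKM in either group. Of the leukocyte markers, *PTPRC* and *CD68* had means of at most 0.0201 FPKM and *CD3E* was listed at 0. Of the endothelial markers, *PECAM1* was at 0.924 and 0.0588 FPKM and *VWF* at most at 0.0325.

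When zinc inside a cell rises, it binds to the zinc fingers of MTF1, which enters the nucleus and binds metal response elements, short motifs upstream of metallothionein genes and of *SLC30A1*. Metallothioneins then take up the excess ions and SLC30A1 exports them, so the transcripts of both are widely used as a readout of free zinc. Metallothionein genes are also known targets of glucocorticoids, of copper and cadmium and of oxidative stress. In human cells *MT2A* is usually the most abundant of the family.

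The elements can be read in the DNA before the gene starts. Matches to the core of the metal response element are printed because MTF1 is known to bind this motif. The core was searched as TGCACNC and TGCGCNC on both strands in the 250 bases before the start given by RefSeq (GRCh38.p14). The promoter table held 5 of the 9 genes, *MT2A*, *MT1H*, *MT1X*, *MTF1* and *SLC30A1*. For *MT2A* the window is chr16:56608334-56608583 on the + strand. Because the longest GENCODE transcript of *MT2A* already covers that window, only the sites are given, each with up to 7 bases on either side and the core in capitals, from the farthest to the nearest to the start:
MT2A site at -246: ccgcTGCACCCagcccct
MT2A site at -168: gcggcccGTGTGCAgagccgg
MT2A site at -153: agccgggTGCGCCCggcccag
MT2A site at -139: ggcccagTGCGCGCggccggg
MT2A site at -88: gcggggcGTGTGCAggcagcg
MT2A site at -54: gggctttTGCACTCgtcccgg
MT2A site at -8: gccgcgcTGCACTCcaccacg

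The sites at -168 and -88 of *MT2A* read the core on the opposite strand. The stretches before *MT1X*, the metallothionein with the largest fold change, *MT1H*, a metallothionein with no read, and *SLC30A1*, the exporter, are given with the cores in capitals. For *MT1X* and *MT1H* the stretch ends just before the first base that GENCODE 29 assigns to the gene, whereas for *SLC30A1* it ends at the RefSeq start, at 211579162, upstream of the GENCODE start at 211578742. They are chr16:56682220-56682423 on the + strand for *MT1X*, chr16:56669564-56669813 on the + strand for *MT1H* and chr1:211579162-211579411 on the - strand for *SLC30A1*, all written 5′ to 3′ along the gene:
MT1X: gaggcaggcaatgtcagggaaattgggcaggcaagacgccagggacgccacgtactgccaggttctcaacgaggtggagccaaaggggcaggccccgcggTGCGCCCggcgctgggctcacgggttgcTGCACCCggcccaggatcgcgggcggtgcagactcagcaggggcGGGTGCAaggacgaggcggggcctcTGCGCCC
MT1H: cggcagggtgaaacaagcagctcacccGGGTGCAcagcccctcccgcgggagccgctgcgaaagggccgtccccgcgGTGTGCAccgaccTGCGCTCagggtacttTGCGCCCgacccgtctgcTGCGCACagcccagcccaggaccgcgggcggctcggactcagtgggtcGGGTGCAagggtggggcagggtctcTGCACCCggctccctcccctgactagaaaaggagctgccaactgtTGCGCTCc
SLC30A1: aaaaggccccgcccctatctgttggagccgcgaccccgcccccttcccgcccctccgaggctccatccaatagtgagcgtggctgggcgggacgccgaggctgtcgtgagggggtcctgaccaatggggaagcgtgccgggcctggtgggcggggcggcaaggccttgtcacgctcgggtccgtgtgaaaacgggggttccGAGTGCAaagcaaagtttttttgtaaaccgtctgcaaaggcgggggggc

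There were 7 cores before *MT2A*, 8 before *MT1H*, 4 before *MT1X*, 1 before *SLC30A1* and 0 before *MTF1*. The bases between the RefSeq start and the GENCODE start of *SLC30A1* were not searched. Of the 35116 RefSeq promoters of this length, 24.8% held at least 1 core, 1.58% at least 3, 0.370% at least 4 and 0.120% at least 5. The *MT1H* stretch held more cores than that of *MT2A*. *MT1H* had no read and *MT2A* was the most abundant of the family, and how the number of cores relates to the level was not tested. The core of the antioxidant response element, searched as TGACNNNGC on both strands, was found 1 time before each of *MT2A*, *MT1X* and *SLC30A1*, and in 10.9% of all promoters. A match describes the letters and does not show that a factor binds there.

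**Figure D1:**
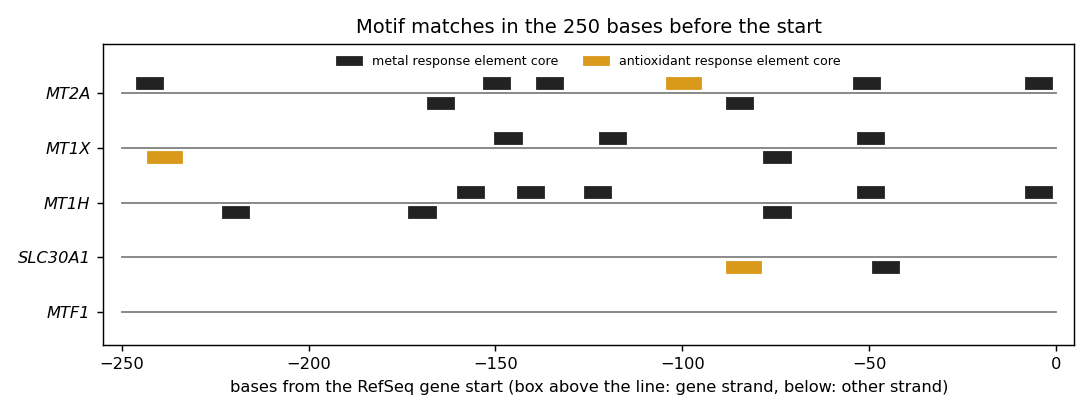
Positions of metal response element cores (black) and antioxidant response element cores (yellow) in the 250 bases before the RefSeq start of 5 genes, with the gene's own strand above each line and the other strand below. *MT2A* (7), *MT1H* (8) and *MT1X* (4) carry several metal response element cores, *SLC30A1* carries 1 and *MTF1* carries 0. The bases between the RefSeq start and the GENCODE start of *SLC30A1* were not searched.

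*MT2A* (ENSG00000125148, chr16:56608199-56609497, + strand, GRCh38) encodes the metallothionein that most human cells express at the highest level. Replicates 1 to 3 of TPC-1 were at 177.4, 156.3 and 172.7 FPKM and those of RRM2-OE-TPC-1 at 230.6, 232.6 and 219.9 FPKM. All 3 RRM2-OE-TPC-1 libraries lay above all 3 TPC-1 libraries, and the gap between the groups was wider than the spread within either. The means were 168.8 ± 11.1 and 227.7 ± 6.80 FPKM (SD, n = 3), a log2 fold change of 0.43 (SE 0.0524, adjusted p = 1.42e-04, limma with Benjamini-Hochberg adjustment over 13621 genes). *MT2A* thus rose, but by less than the log2 fold change of 1 that a call also required. Its level was at the 99.2nd percentile of the tested genes and its log2 fold change at the 78.9th, so changes of this size were common in these cells.

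*MT1X* (ENSG00000187193, chr16:56682424-56684196, + strand) encodes another metallothionein of the ubiquitous type, and sits at the far end of the same gene cluster. It was at 0.710, 1.01 and 0.566 FPKM in TPC-1 and at 2.15, 2.14 and 1.66 FPKM in RRM2-OE-TPC-1. These values stand for 21, 30 and 16 reads and for 55, 65 and 47 reads. The groups did not overlap, and the lowest RRM2-OE-TPC-1 library lay above the highest TPC-1 library. Means were 0.761 ± 0.224 and 1.98 ± 0.277 FPKM (SD, n = 3), a log2 fold change of 1.30 on the scale of log2(FPKM + 0.1) (SE 0.200, limma adjusted p = 5.70e-04). *MT1X* was the only one of the 9 genes to pass both thresholds. Its log2 fold change was at the 97.8th percentile of the tested genes and its level at the 17.2nd. With a pseudocount of 1 in place of 0.1 the change was 0.76 and the gene was no longer called, although its adjusted p still passed.

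*MT1F*, *MT1E*, *MT1G*, *MT1H* and *MT1M* are the remaining metallothioneins, which bind metal in the same way and are inducible by it. *MT1F* (ENSG00000198417, chr16:56657694-56660698, + strand) had 1, 3 and 3 reads in TPC-1 and 1, 1 and 1 in RRM2-OE-TPC-1. Since 3 reads is also the limit that a count of 0 allows, no fold change was computed. *MT1E*, *MT1G*, *MT1H* and *MT1M* were listed at 0 in all 6 libraries. That count allows a level of up to 0.197 FPKM for *MT1E*, 0.277 for *MT1G*, 0.287 for *MT1H* and 0.220 for *MT1M* in the shallowest library, limits that cover counting error only. At this depth they were not detectable in either group, and a level under these limits could not have been seen.

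*MTF1* (ENSG00000188786, chr1:37809567-37859620, - strand) encodes the metal-regulatory transcription factor described above. Its levels were 4.12, 4.32 and 4.16 FPKM in TPC-1 and 3.83, 3.92 and 4.31 FPKM in RRM2-OE-TPC-1. The groups overlapped, as the third RRM2-OE-TPC-1 library lay between the TPC-1 libraries. The difference was -0.06 on the log2 scale, with a 95% interval from -0.22 to 0.09, and did not pass the test (limma adjusted p = 0.430). The abundance of its mRNA does not report the activity of the protein, which zinc regulates directly.

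*SLC30A1* (ENSG00000170385, chr1:211571568-211578742, - strand) encodes ZNT1, the zinc exporter of the plasma membrane and a textbook target of MTF1. It was at 22.2, 21.9 and 22.8 FPKM in TPC-1 and at 26.3, 23.0 and 24.3 FPKM in RRM2-OE-TPC-1. The groups did not overlap, but the second RRM2-OE-TPC-1 library was close to the third TPC-1 library. With means of 22.3 ± 0.434 and 24.5 ± 1.64 FPKM (SD, n = 3), the log2 fold change was 0.14 (95% interval 0.02 to 0.25, limma adjusted p = 0.0431). The adjusted p passed only narrowly and was lost in 7 of 13 alternatives. Without replicate 1 of RRM2-OE-TPC-1 the log2 fold change was 0.09 (adjusted p = 0.111), and with libraries scaled to their total reads it was 0.08 (adjusted p = 0.227).

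**Figure D2:**
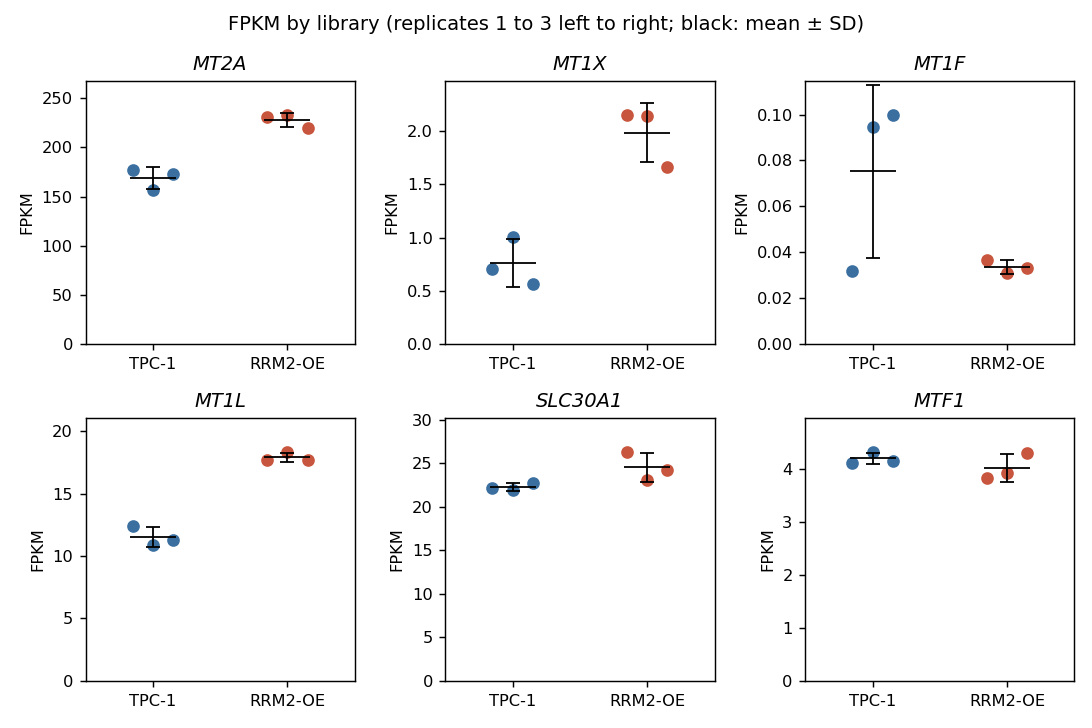
FPKM of 5 of the genes and of the pseudogene *MT1L* in the 3 wild strain TPC-1 libraries (blue) and the 3 RRM2-OE-TPC-1 libraries (red), each axis starting at 0, with the mean and SD in black. The groups do not overlap for *MT2A*, *MT1X*, *MT1L* and *SLC30A1*, they overlap for *MTF1*, and *MT1F* rests on 1 to 3 reads a library.

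The same thresholds over all genes give the background to these counts. Of the 13621 genes tested, 4.48% passed both thresholds in the higher direction, meaning higher under overexpression, and 6.97% in the lower. Of the 9 genes, 4 passed the filter on low values, 1 of them passed both thresholds and was higher, and 0 were lower. By the adjusted p alone, 34.9% of all tested genes were higher and 32.7% lower, against 3 and 0 of the 4 genes. Groups that did not overlap were found for 37.3% of all tested genes in the higher direction and 35.0% in the lower, against the same 3 and 0. A low adjusted p or a lack of overlap was therefore common in this comparison, and the median log2 fold change over all tested genes was 0.01.

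The order of the levels was the same in both groups on the deposited scale, with *MT2A* above *SLC30A1*, *SLC30A1* above *MTF1* and *MTF1* above *MT1X*, and no 2 neighbors in this order overlapped in any library. The order of the last pair depends on the length by which a gene is divided. The deposited lengths count every base that any transcript of a gene covers, which for *MT2A* (1299 bases) and *MT1X* (1773 bases) is the whole gene with its introns. On the length of the principal transcript, 786 bases for *MT2A* and 450 for *MT1X*, the FPKM of *MT2A* were 279.0 ± 18.3 and 376.3 ± 11.2, and those of *MT1X* were 3.00 ± 0.884 and 7.81 ± 1.09. *MTF1* on the same basis was at 4.23 and 4.05 FPKM, so *MT1X* lay below it in TPC-1 and above it in RRM2-OE-TPC-1. The choice of length multiplies a gene's level in all libraries alike and leaves the ratio between the groups as it was.

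Metallothionein genes are close copies of each other, so a read can fit more than 1 of them. How reads with several matches were counted, and whether strand was used, is not given in the sources used here. Among the GENCODE 29 transcripts of *MT2A*, 3.02% of all windows of 50 bases occurred in another gene, and 0 of those of 100 or 150 bases did. For *MT1G* and *MT1H* the share at 50 bases was 16.5% and 15.8%, for *MT1M* 9.87%, for *MT1E* 7.10% and for *MT1F* 1.22%. Among the 9 genes *MT1X* had the largest share, with 18.3% at 50 bases, 11.3% at 100 and 8.58% at 150, the length of 1 read. Its shared windows of 100 and 150 bases all lay in AC026461.1, a transcript model on the same strand that was listed at 0. At 50 bases, 273 of its 341 shared windows occurred in AC026461.1, against 51 in *MT1G*, 38 in *MT1XP1* and 18 in *MT2A*. Most of the share of *MT1X* is thus with an overlapping model and not with another metallothionein. Exons of AC026461.1 cover 321 of the 1773 bases counted for *MT1X* (18.1%), a length that includes introns. The share of the principal transcript of 450 bases was not computed. If reads in the shared bases were left out, *MT1X* would be listed too low. *SLC30A1* shared no window of any of these lengths, and *MTF1* 0.891% at 50 bases.

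**Figure D3:**
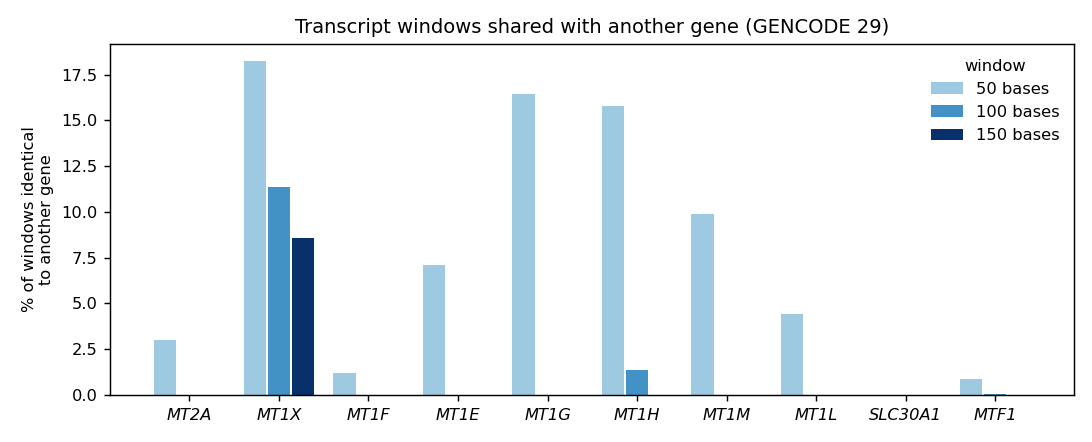
Share of all windows of 50, 100 and 150 bases in the GENCODE 29 transcripts of a gene that occur unchanged in a transcript of another gene (%, bars from 0). *MT1X*, *MT1G* and *MT1H* share 15.8% to 18.3% of their 50-base windows, and at 150 bases, the length of a read, *MT1X* is the gene with a bar above 0. Most shared windows of *MT1X*, at each length, lie in the overlapping model AC026461.1 and not in another metallothionein.

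*MT1L* (ENSG00000260549, chr16:56617476-56618818, + strand) is a metallothionein pseudogene next to *MT2A*, and it had more reads than *MT1X*. It was at 12.4, 10.9 and 11.3 FPKM in TPC-1 and at 17.7, 18.3 and 17.7 FPKM in RRM2-OE-TPC-1, from 74 to 129 reads a library. The groups did not overlap. Means were 11.5 ± 0.793 and 17.9 ± 0.363 FPKM, a log2 fold change of 0.63 (SE 0.0538, limma adjusted p = 1.85e-05) that did not reach 1. Over the part that could be aligned, its principal transcript was 86.7% identical to that of *MT2A*. Of the windows of 50 bases in its transcripts, 4.42% occurred in another gene, the pseudogene *MT1P3*, and 0 in *MT2A*, and at 100 and 150 bases it shared 0 windows with any gene.

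A sum over several copies does not depend on which of these copies a read was given to. Reads left out for having several matches would be missing from the sum. So would reads given to a gene outside it, as *MT1L* is outside the sum of the 7 metallothioneins. The 7 metallothioneins together had 231.8, 205.0 and 225.6 reads per 1000000 reads of depth (RPM) in TPC-1 and 303.4, 306.0 and 288.7 in RRM2-OE-TPC-1. The groups were again apart, with means of 220.8 ± 14.0 and 299.4 ± 9.31 RPM (SD, n = 3), a ratio of 1.36. Over all 21 metallothionein genes and pseudogenes the ratio was also 1.36, with means of 225.6 ± 14.4 and 307.0 ± 9.52. *MT2A* gave 98.7% to 99.5% of the reads of the 7 genes in each library, and *MT1X* gave 0.445% to 0.870% in TPC-1 and 1.02% to 1.25% in RRM2-OE-TPC-1.

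The metallothionein cluster spans 119 kb of chromosome 16 (56565049 to 56684196) and holds 16 metallothionein genes and pseudogenes in this annotation. Of these, 12 were listed at 0 in every library. The 4 with reads were *MT2A*, *MT1L*, *MT1F* and *MT1X*. Outside the cluster, the pseudogenes *MT1XP1* and *MT1P1* had 0 to 4 reads a library.

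Genes around the cluster included some in both directions. Within 1 Mb on either side, 25 of 68 other genes were tested, with a median log2 fold change of -0.42. By the adjusted p alone 6 were higher and 14 lower, beside 34.9% and 32.7% of all tested genes. Of the 25 genes, 0 passed both thresholds and were higher and 7 were lower, beside 4.48% and 6.97% of all tested genes. The 7 were *HERPUD1* (a log2 fold change of -1.35), which encodes a protein of endoplasmic reticulum stress and fell from 51.7 to 20.2 FPKM, the chemokine gene *CX3CL1* (-2.18), *PLLP* (-2.01), the kidney salt transporter gene *SLC12A3* (-1.36), AC012181.2 (-1.21, with groups that overlapped), *LPCAT2* (-1.08) and *ADGRG1* (-1.02). AC012181.2 lies within *HERPUD1* on the same strand, so the calls of these genes do not stand for separate loci. *SLC12A3* passed the filter on low values only through its level in wild strain TPC-1. A log2 fold change above that of *MT2A* was found for 4 of the 25 genes. They were *NUP93* (0.78), *POLR2C* (0.75), *CIAPIN1* (0.58) and *OGFOD1* (0.48), none of them called.

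**Figure D4:**
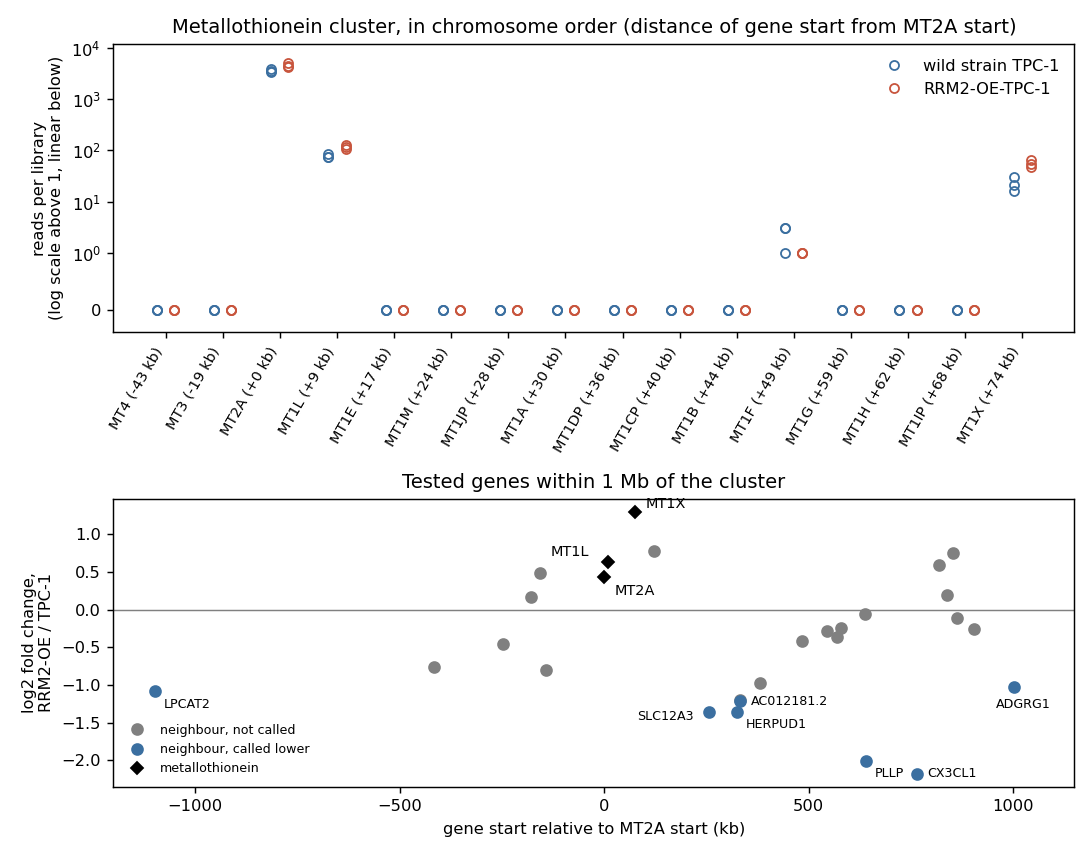
Top, reads per library of the 16 genes of the metallothionein cluster in chromosome order (log scale above 1, linear below), where 4 genes have reads and 12 have 0. Bottom, log2 fold change of the tested genes within 1 Mb against their distance from the start of *MT2A*. The 3 metallothioneins, of which only *MT1X* was called, lie above 0. The 7 called neighbors lie below 0, and neighbors that were not called lie on both sides of it.

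Other zinc transporters included genes in both directions, and none of those tested passed both thresholds. Their counts by the adjusted p stand beside the 34.9% higher and 32.7% lower among all tested genes, and are no result particular to them. The SLC30 family, most of whose members move zinc out of the cytosol, had 5 of 9 genes tested besides *SLC30A1*. By the adjusted p alone 3 were higher, 1 was lower and 1 did not pass, 0 passed both thresholds, and the median log2 fold change was 0.15. *SLC30A5* and *SLC30A7*, which load zinc into the secretory pathway, were at log2 fold changes of 0.36 and 0.28, and the vesicle transporter *SLC30A4* was at -0.28. Of the importers of the SLC39 family, which bring zinc into the cytosol, 11 of 14 were tested, with 4 higher, 4 lower, 3 that did not pass, 0 past both thresholds and a median of 0.24. *SLC39A8* (0.56) and *SLC39A10* (0.54), both of the plasma membrane, were higher, whereas *SLC39A14* (-0.49), which also carries iron and manganese, and *SLC39A9* (-0.44) were lower.

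Metallothioneins also bind copper. Of 8 copper genes 7 were tested, with 4 higher and 2 lower by the adjusted p alone and a median log2 fold change of 0.33. Among all tested genes 34.9% were higher and 32.7% lower by the adjusted p alone, and 4.48% passed both thresholds in the higher direction. *COX17*, the copper chaperone of cytochrome c oxidase, was the 1 gene past both thresholds, at 3.04 ± 0.172 and 6.57 ± 0.240 FPKM (log2 fold change 1.09, limma adjusted p = 2.98e-06). The copper importer *SLC31A1* was lower (log2 fold change -0.63), as was the exporter *ATP7A* (-0.57), and *SOD1* and the chaperone *ATOX1* were higher (0.59 and 0.58).

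Genes of metal and oxidative stress gave 4 higher and 2 lower of 7 tested by the adjusted p alone, with a median log2 fold change of 0.55. By both thresholds 2 were higher and 1 was lower. The shares of all tested genes were 34.9% and 32.7% by the adjusted p alone and 4.48% and 6.97% by both thresholds. *HMOX1*, which encodes heme oxygenase and is induced by cadmium and by oxidants, rose from 14.1 ± 0.454 to 37.8 ± 0.432 FPKM (log2 fold change 1.42, limma adjusted p = 5.43e-08). *HSPA1B*, a heat shock gene, rose from 2.05 to 5.79 FPKM (1.45), though it has a near-identical copy in *HSPA1A* and their reads may be split. *SLC7A11*, the cystine importer, fell from 18.3 to 7.87 FPKM (-1.21). *GCLM* (0.55), a subunit of the enzyme that makes the glutathione precursor, was higher, and *TXNRD1* (-0.11), which encodes thioredoxin reductase, was lower, so the list did not move one way.

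Glucocorticoids induce *MT2A* in many cells, and 10 of 11 genes that they induce were tested. By the adjusted p alone 4 were higher and 6 lower, 1 and 4 of them passed both thresholds, and the median log2 fold change was -0.72. These counts stand beside 34.9% higher and 32.7% lower among all tested genes by the adjusted p alone, and 4.48% and 6.97% by both thresholds. *TSC22D3*, which encodes GILZ, fell from 9.50 to 2.03 FPKM (log2 fold change -2.18), *KLF9* from 4.29 to 1.03 (-1.96) and *CEBPD* from 63.1 to 21.5 (-1.55). *BCL6*, which ranked after these and was named once its values had been seen, fell from 10.6 to 3.67 FPKM (-1.50). *SGK1*, a kinase gene, went the other way, from 0.189 to 1.50 FPKM (2.47), and passed the filter on low values only through its level in RRM2-OE-TPC-1. The rest of the 4 higher genes were not called. They were *FKBP5* (3.71 to 5.32 FPKM, 0.51), *GADD45B* (8.67 to 12.3 FPKM, 0.51) and *DUSP1* (22.8 to 30.6 FPKM, 0.42), so this list did not move one way.

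**Figure D5:**
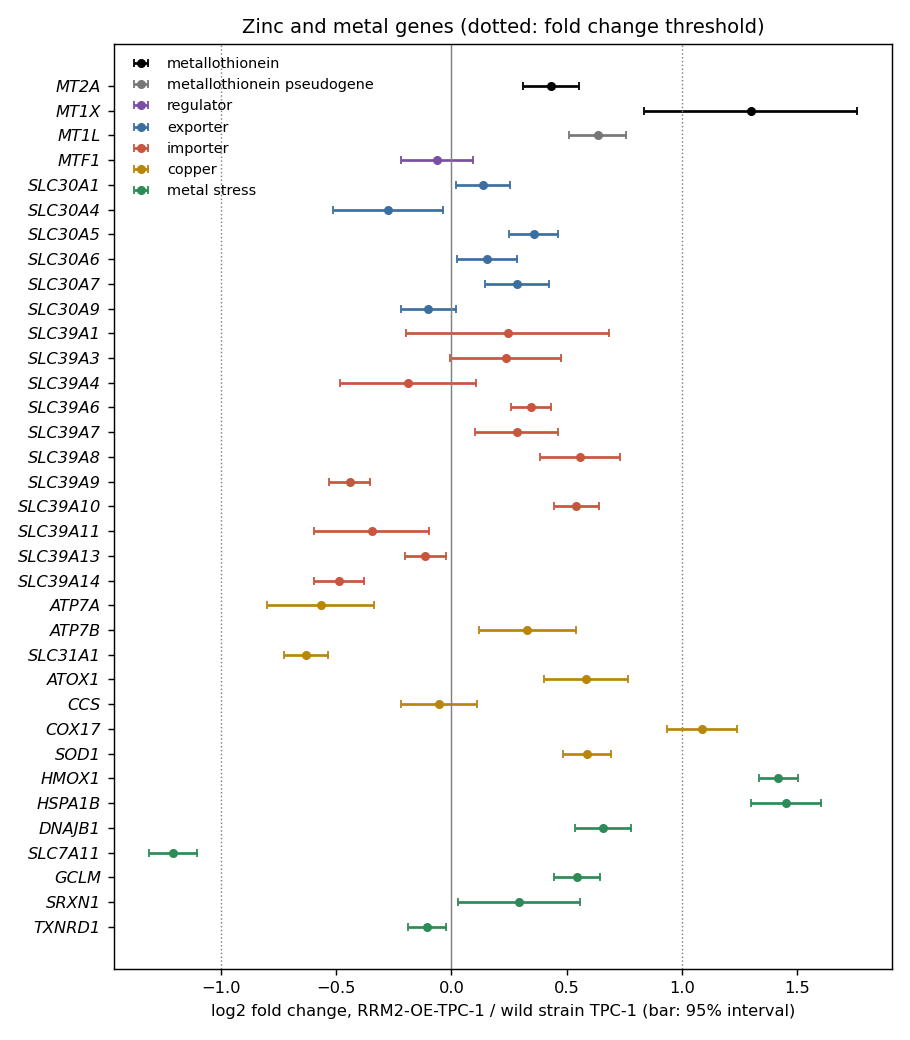
Log2 fold change of RRM2-OE-TPC-1 against wild strain TPC-1 with its 95% interval for the tested metallothioneins, *MTF1*, zinc exporters and importers, copper genes and metal stress genes, with dotted lines at the threshold of 1 in either direction. *MT1X* (1.30), *COX17* (1.09), *HMOX1* (1.42) and *HSPA1B* (1.45) lie beyond it on the higher side and *SLC7A11* (-1.21) on the lower, while *MT2A* is at 0.43, *SLC30A1* at 0.14 and *MTF1* at -0.06.

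Among the genes whose pattern over the 6 libraries was nearest to that of *MT2A*, by the Euclidean distance of centred log2(FPKM + 0.1), were *NOP14* (distance 0.0468) and *TMEM8A* (0.0536), against a median distance of 0.706 over all tested genes. *NOP14*, a gene of small ribosomal subunit assembly, was at 18.9 and 25.7 FPKM, and *TMEM8A* at 14.7 and 19.8 FPKM. The 6 libraries fall into 2 groups, so this likeness rests mainly on the difference between the groups and was given no test.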

How the data were processed

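Total RNA of 3 wild strain TPC-1 and 3 RRM2-OE-TPC-1 libraries was sequenced. The paper describes poly(A) selection, but the labels an rRNA removal kit and RNase R. The authors mapped reads by HISAT2, took gene counts from featureCounts, scaled them by gene length and depth, and deposited FPKM. The submitters' processing notes give HISAT2 2.0.5, featureCounts 1.5.0, DESeq2 1.20.0 and GRCh38.p14. Gene positions were those of GENCODE 29.

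Multiplied by gene length, the FPKM of each library were whole multiples of 1 step within a tolerance of 0.01, which gave reads. The authors' depth was 0.997 to 1.05 times the total reads on genes. Of 30958 genes above 0, those with at least 0.5 FPKM and 10 reads in at least 3 libraries were tested as log2(FPKM + 0.1) with limma 3.58.1 (lmFit and eBayes with a trend, R 4.3.3) and Benjamini-Hochberg adjustment. Genes with an adjusted p up to 0.05 and a log2 fold change of at least 1 in either direction were called. An exact permutation test of 3 against 3 cannot go below 0.1 and was not used. The procedure was tested on simulated data. Figures and motif searches used Python 3.11.15, pandas 2.3.3, matplotlib 3.10.9 and Biopython 1.88.

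The genes described, the gene lists and the tests were chosen with earlier results of these data known. Named are *RRM2*, the 9 genes, other metallothioneins with a read, called genes of 5 lists (at most 4 a list), called or overlapping genes within 1 Mb of the cluster and the 3 genes nearest to *MT2A*. Some genes that this rule or the marker lists cover are not reported here. Other genes are named as examples chosen after their values were seen, beside the marker genes. Alternatives were other pseudocounts, filters, scalings and thresholds, voom on recovered reads, a replicate block, each library left out and, added after seeing the data, principal transcript lengths and the sum of all metallothioneins.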

Additional observations from a re-analysis of the deposited data

How the results depend on the processing

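Of 65 log2 fold changes of *MT2A*, *MT1X*, *MTF1*, *SLC30A1* and *MT1L* under 13 alternatives each, 58 kept their direction and their side of the adjusted p, 7 (all of *SLC30A1*) lost the threshold and 0 reversed. *MT2A* ranged from 0.38 to 0.47, *MT1X* from 0.76 to 1.50, *MT1L* from 0.58 to 0.69, *MTF1* from -0.12 to -0.03 and *SLC30A1* from 0.08 to 0.18. *SLC30A1* lost the adjusted p without any 1 TPC-1 library, without replicate 1 or 3 of RRM2-OE-TPC-1, with no filter and with libraries scaled to total reads, which also moved the median of all genes from 0.01 to -0.05. With 1560 genes called, and 1 of the 9 genes, a pseudocount of 1 gave 716 and 0 (it shrinks the changes of genes with low FPKM), and the adjusted p alone, with no fold threshold, gave 9207 and 3. Leaving out 1 library gave 1573 to 1608 genes and 1 of the 9. The samples share only a number: deviations of same-numbered libraries correlated at -0.01, -0.01 and -0.06, and the replicate block gave 1566 genes and 1 of the 9. The reads of *MT1X*, 16 to 65 a library, limit the precision of its fold change, and the 4 metallothioneins at 0 could not be compared at this depth.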
